A study of Mus musculus with 35 samples.

Results

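The catalytic mutant Tet3m/m and the wild type Tet3+/+ were compared in the experiment in which cells differentiating to neuroectoderm (NE) received either an empty vector (EV) or the catalytic domain of TET3 (Tet3-CD). The comparison rests on 4 of the 35 samples of the series, taken by their labels: Tet3+/+ and Tet3m/m with EV, and Tet3+/+ and Tet3m/m with Tet3-CD. The comparison and its gene lists were set with earlier results of these data known. The 2 samples of each genotype therefore differ in vector and are not repeats of 1 condition, and vector was a block in the test that gives the calls. Libraries of Tet3 knockout (Tet3-/-) cells from the same experiment did not enter that test, only the alternatives said to hold all 6 samples of the experiment or to leave 1 library out. A pair of other experiments of the series held the same genotypes and gave values to set beside these: day 3 of differentiation without a vector (3 samples per genotype) and the EV samples of an experiment on Dnmt1 overexpression, which were transfected when differentiation began and selected with blasticidin (2 per genotype).

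The study asked which roles of TET3 in mouse embryonic stem cells (ESCs) becoming NE need its enzyme activity, by setting a point mutant beside a knockout in RNA-seq, DNA methylation and chromatin assays. All cells derive from V6.5, a male ESC line of mixed 129 and C57BL/6 background, and the labels give the same treatment for all: serum and LIF, then LIF withdrawal and 1 uM retinoic acid (RA) for 72 h. Tet3m/m carries point changes in both alleles at the iron-binding site of the enzyme, introduced by CRISPR/Cas9. EV is a lentiviral plasmid that makes HA tag and tdTomato, Tet3-CD is the same plasmid with the HA-tagged catalytic domain, and both were transfected after differentiation had begun. The study's methods place this transfection on day 2 and the harvest later than the 72 h of the labels, so the time in RA may differ from that of the other experiments, and time and experiment cannot be told apart where their values are set side by side. The study made several clones of each mutant, but the labels do not name the clone behind a library and number every library of the experiment 1. Each genotype here may be 1 line, so genotype and line cannot be told apart.

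TET3 is 1 of the dioxygenases that oxidise 5-methylcytosine in DNA to 5-hydroxymethylcytosine, a step toward demethylation, using an iron atom held by a histidine, an aspartate and a second histidine. Tet3 is nearly silent in ESCs and is induced as they leave pluripotency, and the enzyme is best known for demethylating the paternal genome of the zygote and for its part in neural and neural crest development. In RA-driven differentiation, pluripotency genes close down while neural progenitor genes and Hox genes open, and part of the cells take extraembryonic endoderm or mesodermal fates.

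The site that the mutation hits is shown first, because the read counts do not resolve it. The 63 bases below were read from the GENCODE transcript Tet3-202 (GRCm38), within the gene on chromosome 6. Capitals mark the codons of the iron-binding histidine and aspartate, codons 950 and 952 of the 1668-codon reading frame.
Tet3 catalytic site: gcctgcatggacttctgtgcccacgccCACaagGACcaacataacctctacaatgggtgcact

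Promoters are shown for Mest and Grb10, the imprinted genes with the largest falls, and for 3 Zscan4 genes, a cluster that rose together. Each is the 300-base RefSeq window from 250 bases before to 50 bases after a transcription start in GRCm38.p6, given 5' to 3' on the strand of the gene, with every CG dinucleotide in capitals (CG reads the same on both strands). Where a gene had several windows, the one with most CG was taken. The Mest window is chr6:30737800-30738099 on the plus strand with 17 CG, and that of Grb10 is chr11:12037371-12037670 on the minus strand with 45. Over all 32851 windows, of 27025 genes, the median was 7 CG, and 31.4% of windows had 17 or more. Mest had 3 windows and Grb10 had 2, and each is shown by its richest, whereas the median counts every window.
Mest: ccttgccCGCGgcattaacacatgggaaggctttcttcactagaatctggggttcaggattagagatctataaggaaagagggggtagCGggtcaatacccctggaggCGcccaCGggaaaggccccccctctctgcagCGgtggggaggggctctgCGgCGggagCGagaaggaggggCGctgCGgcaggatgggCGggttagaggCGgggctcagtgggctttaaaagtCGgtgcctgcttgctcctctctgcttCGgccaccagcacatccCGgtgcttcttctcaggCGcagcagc
Grb10: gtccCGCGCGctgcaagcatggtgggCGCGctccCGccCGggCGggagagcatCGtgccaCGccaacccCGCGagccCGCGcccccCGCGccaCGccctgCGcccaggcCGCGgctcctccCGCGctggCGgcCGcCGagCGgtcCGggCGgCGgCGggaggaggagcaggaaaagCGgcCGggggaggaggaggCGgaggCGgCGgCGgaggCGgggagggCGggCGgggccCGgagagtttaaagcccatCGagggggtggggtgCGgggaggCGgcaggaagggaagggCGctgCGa

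The Zscan4 windows lie on chromosome 7, at chr7:11005495-11005794 on the plus strand for Zscan4c, chr7:11166099-11166398 on the minus strand for Zscan4d and chr7:11397665-11397964 on the plus strand for Zscan4f. They hold 4, 3 and 3 CG, below the median of all promoters. Aligned without gaps, Zscan4c and Zscan4f share 275 of 277 overlapping bases (99.3%), Zscan4c and Zscan4d 281 of 289 (97.2%) and Zscan4d and Zscan4f 259 of 266 (97.4%).
Zscan4c: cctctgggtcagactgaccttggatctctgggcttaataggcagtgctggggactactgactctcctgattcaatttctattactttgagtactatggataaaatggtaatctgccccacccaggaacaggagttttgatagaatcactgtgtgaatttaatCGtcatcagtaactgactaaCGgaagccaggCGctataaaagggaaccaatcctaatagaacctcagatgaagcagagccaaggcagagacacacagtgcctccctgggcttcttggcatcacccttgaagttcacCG
Zscan4d: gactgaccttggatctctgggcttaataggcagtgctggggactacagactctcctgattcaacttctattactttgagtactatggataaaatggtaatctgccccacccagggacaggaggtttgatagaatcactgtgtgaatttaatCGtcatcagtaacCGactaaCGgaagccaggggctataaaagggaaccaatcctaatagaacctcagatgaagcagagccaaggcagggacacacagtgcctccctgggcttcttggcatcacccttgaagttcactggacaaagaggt
Zscan4f: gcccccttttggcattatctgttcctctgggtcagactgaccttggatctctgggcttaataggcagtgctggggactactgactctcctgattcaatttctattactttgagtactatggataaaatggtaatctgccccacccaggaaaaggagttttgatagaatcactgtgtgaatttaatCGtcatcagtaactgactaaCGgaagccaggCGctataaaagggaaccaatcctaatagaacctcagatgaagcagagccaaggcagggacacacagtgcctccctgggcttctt

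Tet3 was at 4755 normalised read counts in Tet3+/+ with EV and 5441 with Tet3-CD, and at 1850 and 5232 in Tet3m/m. A normalised read count is the number of reads assigned to a gene, divided by the size factor of its library. With EV the Tet3m/m sample was thus lower than both Tet3+/+ samples, while with Tet3-CD it lay between them. The log2 difference was -1.36 with EV and -0.06 with Tet3-CD, and -0.71 (SE 0.13, limma adjusted p = 4.9e-05, n = 2 per genotype) in the fit over both. Reads of the transfected catalytic domain match Tet3 and are counted with it, so the Tet3-CD pair does not measure the endogenous gene. A gene is called where its limma p-value, adjusted by Benjamini-Hochberg over all genes, is under 0.05 and its change is above 1.5-fold. The call of Tet3 was lost without the vector block (adjusted p = 0.087), with all 6 samples of the experiment in the fit (0.1) and by DESeq2 (0.41).

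Over the whole transcriptome the genotypes stood far apart. Of 17439 genes with a mean of at least 10 normalised read counts, limma called 2671 higher in Tet3m/m (15.3% of genes tested) and 1976 lower (11.3%), 4647 in all (26.6%). Among called genes the median log2 difference was 1.44 upward and -1.07 downward. Changes of 4-fold or more were found for 806 higher and 316 lower genes, and of 16-fold or more for 55 and 39. The libraries held 33475041 to 37707719 reads each. With 2 samples per genotype, the spread is estimated chiefly from all genes together (1 residual against 27.4 prior degrees of freedom), and the p-values measure only the spread between these samples, which may be technical.

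Both vectors gave nearly the same picture. Without any test, 4480 genes (25.7%) differed by more than 1.5-fold in one direction with both vectors, 2644 higher and 1836 lower, while 185 did so in opposite directions. Of the called genes, 4054 were past 1.5-fold with each vector. In 13012 genes (74.6%) both Tet3m/m samples lay on the same side of both Tet3+/+ samples, so a lack of overlap is the rule among 2 against 2 samples here and sets no gene apart. Across the 13748 genes with a mean of at least 50, the differences with EV and with Tet3-CD had a Pearson correlation of 0.93, where the points share 2 genotypes and 1 normalisation and genes are not independent. The SD of the difference with EV was 0.86, against 0.33 for the disagreement between the vectors.

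**Figure D1:**
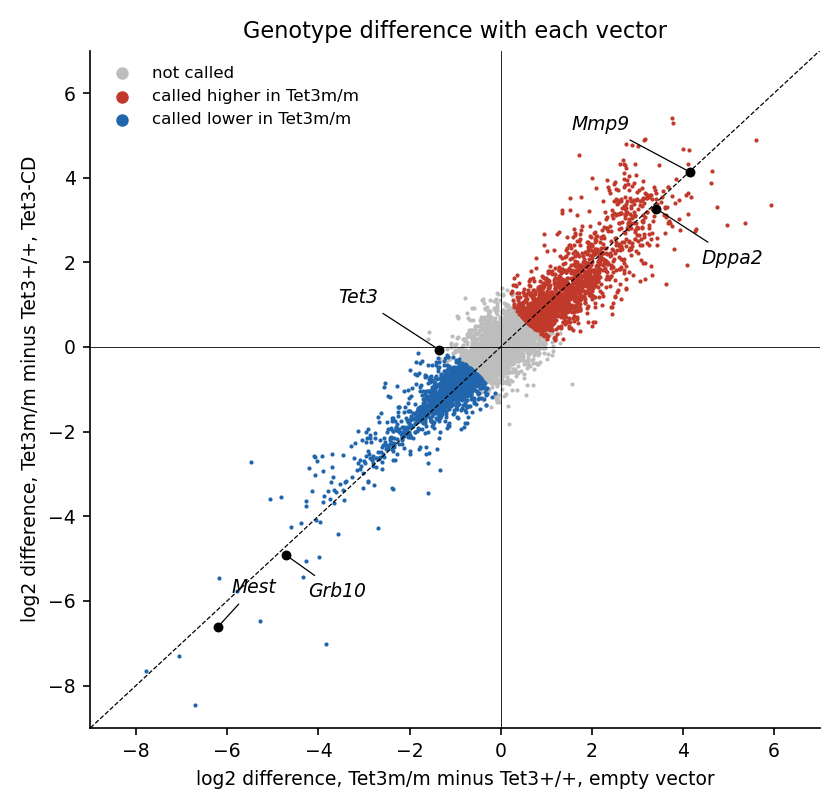
Log2 difference of Tet3m/m minus Tet3+/+ with the empty vector (x axis) and with Tet3-CD (y axis) for each gene with a mean of at least 50 normalised read counts; colours give the limma call and the dashed line marks equal differences. Most genes lie along the line, with Mest and Grb10 far down it, and Tet3 lies off it at -1.36 and -0.06.

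Genes of the methylation machinery were called about as often as all genes. The 19 members tested include the DNA methyltransferases, their cofactors, the TETs (with Tet3) and methyl-binding proteins. Of these, 3 were called higher and 2 lower, with a median log2 difference of -0.06. Over all genes 15.3% were called higher and 11.3% lower. Without the vector block, with all 6 samples or by DESeq2, 1 was called lower. The maintenance methyltransferase Dnmt1 was at 14455 and 14184 in Tet3+/+ (EV, then Tet3-CD) against 11859 and 12269, a log2 difference of -0.25 (SE 0.04, adjusted p = 1.3e-05) that stayed under the fold threshold. Dnmt3l, the cofactor of de novo methylation, rose from 1553 and 1035 to 2811 and 2451 (1.05, SE 0.08, adjusted p = 1.4e-12). Gadd45b and Gadd45g, stress genes linked to demethylation, also rose (1.37 and 1.27). Tet1 and Tet2 were not called (-0.19, SE 0.07 and 0.44, SE 0.07).

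Imprinted genes, which are expressed from 1 parental allele under the control of DNA methylation, held some of the deepest falls. Of 33 tested, 16 were called lower, 3 higher and 14 were not called, and their median was -0.62 against 0.00 over all genes. Mest, a paternally expressed gene of mesoderm, was at 25150 and 27244 in Tet3+/+ and at 341 and 277 in Tet3m/m. The log2 difference was -6.41 (SE 0.07, limma adjusted p = 1.5e-32), with every Tet3m/m sample far below every Tet3+/+ sample. Grb10, an adaptor that restrains insulin and growth factor signalling, was at 27685 and 30960 against 1049 and 1032 (-4.81, SE 0.05, adjusted p = 1.5e-32).

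Plagl1, a zinc finger gene that restrains growth, was at 13041 and 13483 against 4740 and 4673 (-1.49, SE 0.05, limma adjusted p = 2e-21). The growth factor gene Igf2 (-1.42), Dlk1 (-1.25) and the cell cycle inhibitor Cdkn1c (-0.97) fell too. Copg2, which overlaps Mest at its end so that reads between them are uncertain, was at 2512 and 2569 against 1091 and 1135, and Nap1l5, a retrogene with paternal expression, at 34.2 and 29.6 against 5.59 and 1.88. In the other direction, H19, the maternally expressed RNA beside Igf2, rose from 30468 and 32129 to 98391 and 97116 (1.64, SE 0.04, limma adjusted p = 4.2e-25). Nnat (0.66) and Magel2 (0.80) were the other members called higher. Peg10, Igf2r and Snrpn were not called, with differences of 0.16, -0.09 and 0.19.

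Mest and Tet3 both lie on chromosome 6, and that chromosome stood apart. Of its 789 genes tested, 262 were called lower (33.2%), against 7.92% to 16.9% on the 19 other chromosomes other than Y, and its median was -0.24 where theirs ran from -0.09 to 0.07. Taken in order along the chromosome, 632 genes with a mean of at least 50 were split into runs of 40. The 7 neighbouring runs from St7 to Gmcl1 each had a median below -0.5. In this stretch of 280 genes, 196 were called lower (70.0%) and 13 higher, and the median was -0.85 with EV and -0.83 with Tet3-CD. The other 352 genes had a median of 0.02, with 11.1% called lower.

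Tet3 is gene 283 in this order, inside the stretch, as are Mest (gene 77) and the imprinted gene Copg2 (gene 78, -1.19). Whether Copg2 fell as an imprinted gene or with its neighbours was not tested. The same stretch had medians of -0.91, -0.88 and -0.85 in the 3 Tet3m/m samples of day 3 and of -0.78 and -0.77 in the 2 Tet3m/m samples with EV of the Dnmt1 experiment. In Tet3-/- cells of the present experiment it was at 0.02 with EV and 0.00 with Tet3-CD. The stretch was delimited after its values were seen, and DNA copy number was not measured, so what moves its genes was not tested. Without chromosomes 6 and Y, 2586 genes were called higher and 1710 lower.

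**Figure D2:**
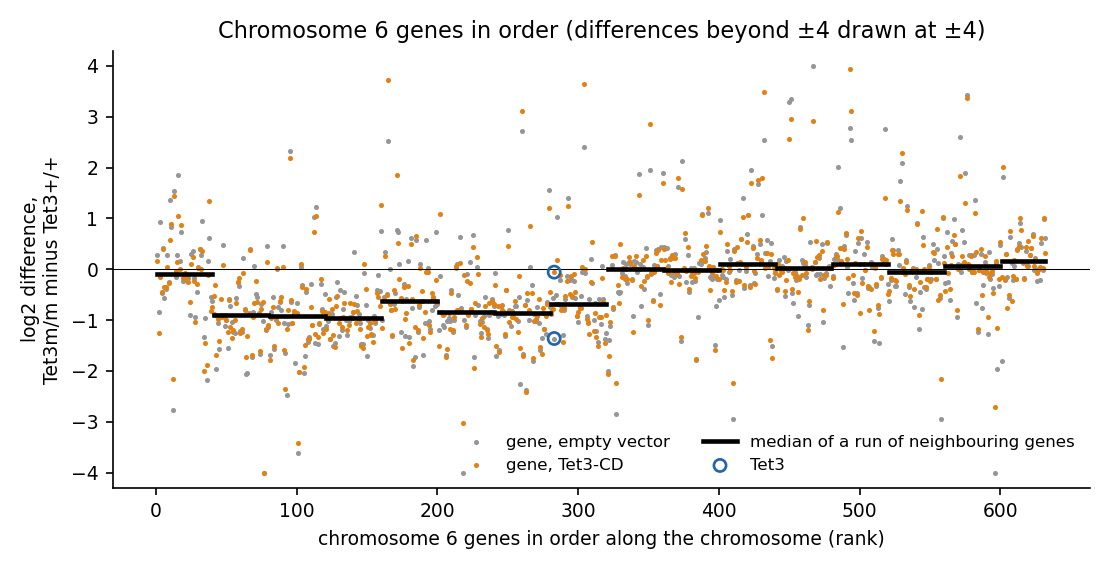
Log2 difference of Tet3m/m minus Tet3+/+ for 632 genes of chromosome 6 in their order along it, with the empty vector (grey) and Tet3-CD (orange); black bars are medians of runs of 40 genes and blue circles mark Tet3. The 7 runs from rank 41 to rank 320 sit below -0.5, and the runs on both sides sit near 0.

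Chromosome Y was the other with a shift. All 4 of its genes tested were called lower. Ddx3y, an RNA helicase, was at 547 and 587 in Tet3+/+ against 13.0 and 5.64 in Tet3m/m (-5.88, SE 0.32, limma adjusted p = 1.1e-15). The histone demethylase Uty was at 219 and 200 against 0 and 0. This is at least 148.9-fold lower, taking 3 reads over both Tet3m/m samples as the limit that a count of 0 allows. The translation factor Eif2s3y was at 299 and 350 against 1.86 and 0, a ratio of 348 on 634 and 2 reads (95% exact interval 95.9 to 2880, counting error only). Xist, the RNA that coats an inactive X chromosome, was at 34.2 and 34.6 against 102 and 125 (1.69, SE 0.32, adjusted p = 5.6e-05). The line is male by its label, and RNA of Eif2s3y and Uty was at or near 0 in both Tet3m/m samples but not in Tet3+/+. Tet3-/- cells of the same experiment were above both Tet3+/+ samples, with Eif2s3y at 1353 and 1368 and Uty at 677 and 773.

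The values of these genes also separate the Tet3m/m samples of the series from each other. On day 3, Eif2s3y was at 0 in Tet3m/m replicate 1 but at 144 and 79.4 in replicates 2 and 3, beside 546, 384 and 287 in Tet3+/+. In the Dnmt1 experiment with EV the Tet3m/m samples stood at 115 and 91.2, beside 490 and 488 in Tet3+/+. Eif2s3y was thus below the Tet3+/+ samples of its own table in every Tet3m/m sample, and to different degrees. Grb10 was at 1596 in day 3 replicate 1, but at 51685 and 57931 in replicates 2 and 3, beside 40907, 42124 and 42892 in Tet3+/+, and at 38462 and 39185 in Tet3m/m of the Dnmt1 experiment. In both genes the 2 Tet3m/m samples here lie nearest to replicate 1 of day 3. Mest, unlike Grb10, was low in every Tet3m/m sample, at 363, 516 and 365 on day 3 and at 135 and 121 in the Dnmt1 experiment.

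H19 was split differently, at 78052 and 75251 in day 3 replicates 1 and 2, 10191 in replicate 3, and 7523 and 7947 in the Dnmt1 experiment. On day 3, 31 genes stood at least 4-fold from both other Tet3m/m samples in replicate 1, 5 higher and 26 lower. Of those present in all tables, the Tet3m/m samples here were closer to replicate 1 for 2 of 3 and 9 of 25, and those of the Dnmt1 experiment for 0 of 3 and 0 of 25. The labels do not say whether these samples share a clone. Each table was normalised on its own, so levels across them are set side by side without a test.

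**Figure D3:**
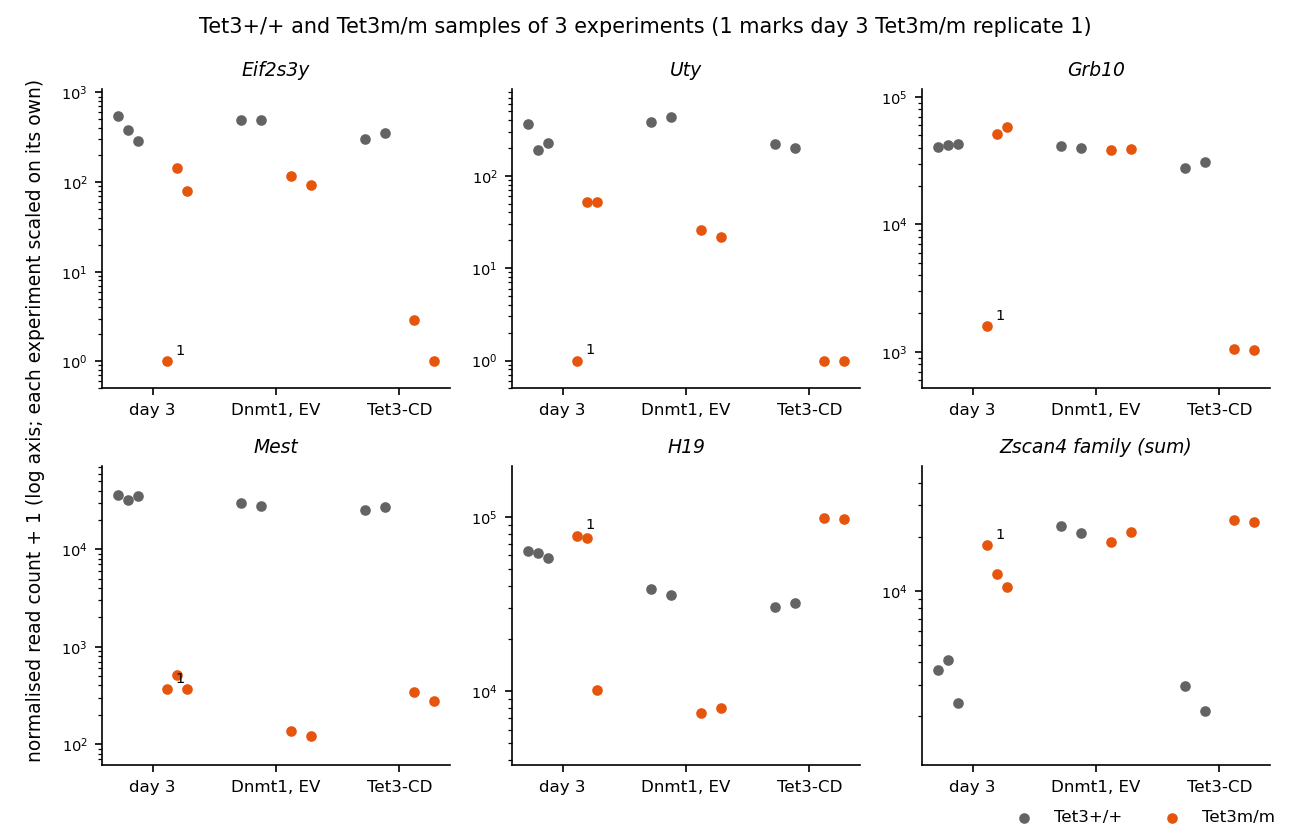
Normalised read counts plus 1 (log axis) of Eif2s3y, Uty, Grb10, Mest, H19 and the summed Zscan4 family in Tet3+/+ (grey) and Tet3m/m (orange) samples of 3 experiments, 1 point per sample; each experiment was scaled on its own. Eif2s3y, Uty and Grb10 are lowest in Tet3m/m of day 3 replicate 1 and of the Tet3-CD experiment. Eif2s3y, Uty and Mest are below Tet3+/+ of the same experiment in all Tet3m/m samples.

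Pluripotency genes were higher in Tet3m/m. In bulk RNA, more cells of a type and more RNA per cell, or fewer and less, cannot be told apart here or in the groups that follow. Of 15 factors of the naive state, 12 were called higher and 1 lower with a median of 2.00, and of 16 core and primed genes 10 were higher and 1 lower with a median of 1.75. Nanog, a homeobox factor that holds cells in the naive state, was at 626 and 393 against 3655 and 3406 (2.83, SE 0.09, limma adjusted p = 1e-20). Pou5f1, the central factor OCT4, was at 642 and 460 against 3060 and 2845 (2.44, SE 0.09, adjusted p = 4.5e-20). Both rose, as did Esrrb (2.50) and Klf2 (2.55). The exception was Klf4, which fell from 3206 and 2431 to 1207 and 1257 (-1.18).

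Among core and primed genes the largest rise was in Dppa2, a chromatin factor that keeps germline and early embryonic promoters open. It was at 390 and 398 in Tet3+/+ and at 4162 and 3847 in Tet3m/m (3.34, SE 0.08, limma adjusted p = 3.2e-24). The Nodal ligand of the TGF-beta family was at 219 and 158 against 1766 and 1534 (3.14), and its target and antagonist Lefty1 at 170 and 85.0 against 1207 and 1120 (3.26). Fgf5, a marker of the primed state, was the member called lower (-1.03).

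Germline genes that DNA methylation keeps silent in somatic cells rose as well. Of 16 tested, 13 were called higher, with a median of 1.41. By limma, edgeR and DESeq2 alike 0 were called lower, and all 16 fitted differences were above 0. Dazl, an RNA-binding protein of germ cells, was at 124 and 94.8 against 567 and 531 (2.33, SE 0.17, adjusted p = 9.6e-13), Ddx4 at 450 and 452 against 1350 and 1341 (1.57), and Sohlh2 at 286 and 344 against 857 and 882 (1.47). Rpl10l, a testis copy of a ribosomal protein gene, had the largest difference, 3.21. On day 3, 8 of 16 were called higher, where limma called 907 of 17915 genes higher (5.06%) and 929 lower (5.19%). In the Dnmt1 experiment with EV, 8 of 17 were called higher and 1 lower, where 1862 of 18055 genes were higher (10.3%) and 1969 lower (10.9%).

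Gene clusters of the cleavage-stage embryo rose together, chosen here after their values were seen. All 9 Zscan4 genes and pseudogenes, zinc finger genes of the 2-cell stage, were called higher. Their summed level was 2945 and 2142 in Tet3+/+ against 24916 and 24187 in Tet3m/m, 9.7-fold. The Usp17l deubiquitinase genes (5 of 5 called), the Eif1ad-like genes (16 of 16), the Pramel genes (19 of 20) and the Tdpoz and Spopfm genes (7 of 7) rose by 9.7, 10.1, 4.2 and 14.9-fold in sum. Such families hold closely related copies, and the 3 Zscan4 promoters printed above are near-identical. How far the genes of the other families match was not tested here, so how reads were shared among members is uncertain, and sums are given in place of single members.

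On day 3 the Zscan4 sum was 3604, 4095 and 2358 in Tet3+/+ against 17927, 12349 and 10484 in Tet3m/m. In the Dnmt1 experiment with EV it was 22854 and 21066 in Tet3+/+ against 18814 and 21254 in Tet3m/m, with overlap between the genotypes. As a share of all normalised counts these 4 samples held 0.046% to 0.0563%, against 0.071% and 0.0691% in Tet3m/m and 0.00824% and 0.006% in Tet3+/+ of the present experiment. In Tet3-/- cells of the present experiment it was 3333 and 3706, near Tet3+/+.

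Among neural progenitor and proneural genes more were called lower than higher, and the rest were not called. Of 25 progenitor factors, 11 were called lower, 2 higher and 12 not called (median -0.36), and of 22 proneural and Notch genes 9 were lower, 1 higher and 12 not called (median -0.60). By DESeq2, 7 progenitor factors were called lower. Hes5, the Notch target that keeps neural progenitors undifferentiated, was at 64.1 and 21.7 against 1.86 and 1.88 (-3.74, SE 0.73, limma adjusted p = 8e-05). The proneural factors Neurog1 (132 and 53.3 against 16.8 and 13.2) and Neurog2 (66.2 and 55.3 against 5.59 and 7.51) fell as well (-2.43 and -3.04). Each of the 3 was low in both Tet3m/m samples.

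The POU factor Pou3f2 was at 157 and 79.0 against 3.72 and 5.64 (-4.33, SE 0.51, limma adjusted p = 2.4e-08). Dbx1, an interneuron progenitor factor, had no read in Tet3m/m against 156 reads over both Tet3+/+ samples, at least 57.1-fold lower by the same limit of 3 reads. Neurod4 had 2 reads against 123, a ratio of 67.5 (exact interval 18.3 to 564). All 6 of these genes were lower with Tet3-CD than with EV in Tet3+/+ already. The progenitor list had a median of -0.71 with EV and -0.15 with Tet3-CD, a difference between vectors that was not tested.

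Other neural factors of the lists were called lower, not called or called higher. Zic1, a factor of the dorsal neural tube, was at 663 and 659 against 242 and 282 (-1.34, SE 0.13, limma adjusted p = 6e-10). Pax6 was at 518 and 476 against 255 and 300 (-0.84, SE 0.14, limma adjusted p = 8.4e-06), and Sox11, a factor of neural progenitors, at 6294 and 6228 against 3023 and 3437 (-0.96). Sox1 was at 324 and 178 against 181 and 165, so the genotypes overlapped. Its difference (-0.47, SE 0.20, limma adjusted p = 0.044) stayed under the fold threshold, and it was not called. Pax3 and Olig3 were not called either (0.08 and 0.23), and the intermediate filament gene Nes was higher in Tet3m/m (5410 and 6259 against 15200 and 14561, 1.35). All 4 libraries thus held RNA of the defining markers Sox1, Pax6 and Nes.

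Neuronal differentiation genes were split, with 7 of 23 higher and 8 lower, where 15.3% of all genes were called higher and 11.3% lower. Nhlh2, a helix-loop-helix factor of young neurons, was at 162 and 94.8 against 7.45 and 1.88 (-4.67, SE 0.50, limma adjusted p = 3.6e-09), whereas the microtubule regulator Stmn2 was at 254 and 227 against 804 and 801 (1.74, SE 0.13, adjusted p = 9.7e-13). Of 28 Hox genes, which give cells their place along the body axis, 6 were called higher and 6 lower (median -0.01). Hoxb1, a direct target of RA in the hindbrain, was at 283 and 272 against 1990 and 2144 (2.89, SE 0.10, adjusted p = 2e-20), and Hoxa9 at 781 and 756 against 209 and 218 (-1.84). The Hoxa cluster lies in the low stretch of chromosome 6, and 5 of the 6 Hox genes called lower were Hoxa genes.

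Of 17 RA pathway genes, 8 were called higher and 2 lower (median 0.45). The share of lower calls was near the 11.3% of all genes, while that of higher calls was above their 15.3%. The 2 that fell did so steeply: Aldh1a2, which makes RA, was at 1723 and 1632 against 158 and 132 (-3.53, SE 0.12, limma adjusted p = 1.9e-20), and the RA-binding protein Crabp1 at 1797 and 1301 against 136 and 224 (-3.13). Aldh1a3, another enzyme that makes RA, was low in every sample but rose, from 5.34 and 1.98 to 57.7 and 45.1 (3.58, SE 0.62). The receptor Rarg (1.21) and the RA-degrading enzyme Cyp26b1 (1584 and 1903 against 4194 and 4539, 1.33) rose. With all 6 samples in the fit 5 members were called higher, and Cyp26b1 lost its call (limma adjusted p = 0.081). On day 3, Aldh1a2 and Crabp1 were lower too (-1.78 and -1.90). In the Dnmt1 experiment with EV, Crabp1 was lower (-1.58) but Aldh1a2 was not called (-0.32).

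**Figure D4:**
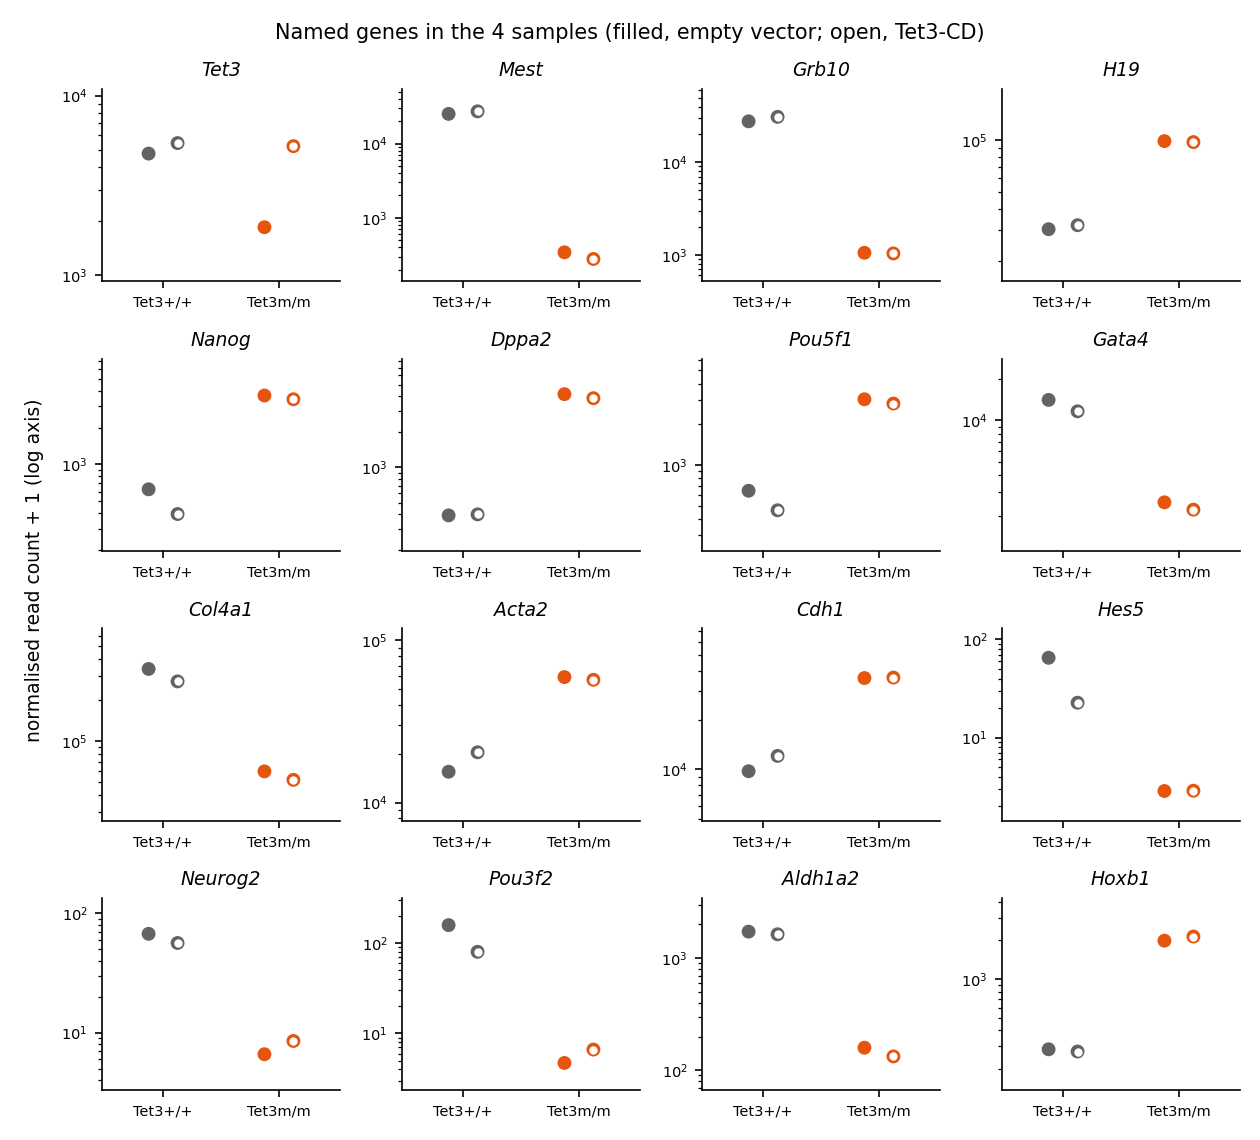
Normalised read counts plus 1 (log axis) of 16 named genes in the 4 samples; grey is Tet3+/+ and orange Tet3m/m, filled points are the empty vector and open points Tet3-CD. The genotypes overlap for Tet3, where the Tet3m/m sample with Tet3-CD lies between both Tet3+/+ samples.

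Endoderm and basement membrane genes had the lowest medians of the 20 lists. Of 20 genes of endoderm and visceral endoderm, 17 were called lower and 1 higher (median -1.82), and of 14 basement membrane and parietal endoderm genes 11 were lower (median -1.70). In the latter list 0 were called higher by limma, edgeR or DESeq2, and 1, Hspg2, had a small positive difference with an unadjusted p under 0.05 (0.21). Gata4, a zinc finger factor of endoderm and heart, was at 14098 and 11641 against 2522 and 2230 (-2.43, SE 0.05, adjusted p = 1.4e-25). The endocytic receptor Cubn was at 27912 and 23591 against 5508 and 5287 (-2.25), and the type IV collagen gene Col4a1 at 340553 and 275538 against 59489 and 51495 (-2.47, SE 0.03, adjusted p = 4.1e-30). Apoa1, an apolipoprotein of visceral endoderm, had the largest difference of the endoderm list (254 and 185 against 11.2 and 9.39, -4.27). The laminin chain Lama1 fell by 2.66 on the log2 scale.

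The summed levels of these lists varied between experiments as well as genotypes. Basement membrane genes took 3.98% and 3.41% of all normalised counts in Tet3+/+ against 1.2% and 1.11% in Tet3m/m, and they took 1.38% and 1.08% in Tet3-/- cells of the same experiment. In Tet3+/+ of day 3 they took 0.537% to 0.652%, and with EV in the Dnmt1 experiment 1.06% and 1.1% in Tet3+/+ and 2.37% and 2.16% in Tet3m/m. The Tet3+/+ samples here thus held the highest shares for this list. The endoderm list took 0.32% and 0.277% in Tet3+/+ here, 0.103% and 0.1% in Tet3m/m and 0.0504% to 0.054% in Tet3+/+ of day 3. In the Dnmt1 experiment it took 0.145% and 0.159% in Tet3+/+ and 0.397% and 0.371% in Tet3m/m, the highest of these. The defining markers were present in all 4 libraries. How far the makeup of the Tet3+/+ cultures enters the other differences was not tested.

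More endoderm genes were called higher than lower in Tet3m/m of the other experiments. Against the Tet3+/+ samples of their own table, they had 8 of 19 called higher and 1 lower on day 3 (median 0.72) and 15 of 20 higher in the Dnmt1 experiment with EV (median 1.12). Basement membrane genes had 2 of 14 higher and 1 lower on day 3 (median 0.26), and 10 higher and 2 lower in the Dnmt1 experiment (median 1.00). Gata4 was at -2.43 here, 0.65 (not called) on day 3 and 1.49 in the Dnmt1 experiment. In the same order Lama1 was at -2.66, 1.05 and 1.76, and Col4a1 at -2.47, -0.03 (not called) and 1.00. Col4a1 lies on chromosome 8, whose genes had medians of -0.09 here, -0.35 on day 3 and -0.45 in the Dnmt1 experiment. What moves the chromosome 8 medians was not tested.

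Smooth muscle and cytoskeletal genes rose. Of 22 vascular, caveolar and smooth muscle genes, 19 were called higher and 1 lower (median 1.15). Acta2, smooth muscle actin, was at 15508 and 20439 against 59464 and 57211 (1.71, SE 0.06, limma adjusted p = 9e-21), Cnn1 (calponin) at 1052 and 1415 against 4456 and 4479 (1.87), and Tpm1 (tropomyosin) at 28858 and 36000 against 77657 and 73289 (1.23). The endothelial cadherin gene Cdh5 was the member called lower, at 68.4 and 75.1 against 27.9 and 13.2. This list took 0.271% and 0.326% of counts in Tet3+/+ and 0.739% and 0.698% in Tet3m/m, and 0.256% and 0.682% in Tet3-/- with EV and Tet3-CD. In the Dnmt1 experiment the direction was reversed, with 1 member higher and 16 lower (Acta2 at -2.68). With all 6 samples in the fit, 11 members were called higher and 0 lower by limma, and Acta2, Cav1 and Myh11 lost their calls (adjusted p = 0.055, 0.29 and 0.31).

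Epithelial and trophoblast-associated genes were called in both directions. The simple keratins Krt8 (21154 and 25230 against 62635 and 61028, 1.42), Krt18, Krt19 and Krt7 rose, with 7 of 16 members of their list higher and 4 lower. E-cadherin, Cdh1, was at 9746 and 12086 against 36103 and 36347 (1.74, SE 0.05, limma adjusted p = 1.4e-22), while the mesenchymal cadherins Cdh6 (-1.62) and Cdh11 (-1.52) fell. Of 16 genes of the cadherin switch and of epithelial-mesenchymal transition, 4 were higher and 3 lower. Among all genes tested, 15.3% were called higher and 11.3% lower. Krt8 was at 0.07 on day 3 (not called) and at -1.22 in the Dnmt1 experiment.

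Mesoderm and neural crest factors were called in both directions. Among 20 primitive streak and mesoderm genes 4 were higher and 6 lower (median -0.12). The share of higher calls was near the 15.3% of all genes, and that of lower calls was above the 11.3% of all genes. With all 6 samples in the fit 2 were higher. Eomes, a T-box factor of the streak, was at 128 and 94.8 against 435 and 325 (1.76, SE 0.18, limma adjusted p = 2e-09), and Hand2, a factor of heart and limb, at 1557 and 1579 against 281 and 317 (-2.39). Its relative Hand1 was at 340 and 399 against 380 and 273, with overlap and no call. Pdgfra, a receptor of mesenchyme that primitive endoderm also makes, was at 11469 and 9785 against 2154 and 2247 (-2.27). Of 13 neural crest factors 5 were higher and 4 lower. Tfap2b was at 526 and 385 against 28.9 and 35.7 (-3.77), and Ets1 rose from 2153 and 2191 to 5982 and 5621 (1.42).

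Wnt genes, which code for secreted signals and their regulators, had 7 of 25 higher and 6 lower (median 0.22). The shares over all genes were 15.3% and 11.3%. Wnt10b was at 54.5 and 85.9 against 722 and 685 (3.34, SE 0.19, limma adjusted p = 2.7e-15) and Wnt3 at 186 and 190 against 982 and 881 (2.30). The secreted inhibitor Sfrp1 fell from 7600 and 8121 to 1706 and 1762 (-2.18), and Sostdc1, another inhibitor, was at 27.8 and 31.6 against 0 and 7.51, a call that was lost with all 6 samples in the fit (limma adjusted p = 0.07). Axin2, a target that reads out the pathway, was at 2315 and 2763 against 2644 and 2817 and was not called (0.11).

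Of 18 cell cycle inhibitors and p53 targets, 8 were higher and 2 lower (median 0.42). Here too lower calls were near the 11.3% of all genes, and higher calls were above their 15.3%. Mdm2, the p53 ubiquitin ligase, was at 8152 and 8832 against 18491 and 18044 (1.11, SE 0.04, limma adjusted p = 8.8e-19), and Cdkn2b, an inhibitor of cyclin D kinases, at 730 and 1023 against 2287 and 2035 (1.32). Ccnd2, a cyclin gene, fell by 1.03 on the log2 scale. Of 19 interferon-stimulated and antigen presentation genes, 7 were higher and 1 lower (median 0.39), among them the class I gene H2-D1 (1298 and 1194 against 2209 and 1990, 0.75).

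By size alone, the largest rises among genes with a mean of at least 50 were in Cidea, a lipid droplet protein (4.27 and 5.93 against 129 and 123, 4.40, SE 0.47, limma adjusted p = 3.8e-09), Spopfm1 (4.39) and Ccno, a cyclin-like protein needed for multiciliated cells (8.55 and 8.89 against 165 and 196, 4.22). Mmp9, a matrix protease, was at 55.6 and 39.5 against 1008 and 707 (4.14). Lrtm2, Pramel45, Eif1ad17, Plac9a, Csn3 and AU019990 completed the 10, between 3.86 and 4.15. Besides Mest, Grb10 and the Y genes, the largest falls were in Igfbp1, a binding protein of insulin-like growth factors (132 and 156 against 0 and 0, at least 103.2-fold lower by the limit of 3 reads), Ptk6 (-5.82), Nepn (-5.77), CAAA01147332.1 (-5.43) and Trpc5os (-4.88). In Tet3-/- cells, Igfbp1 was at 38.1 and 0.

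The gene lists have different medians in the 3 experiments. Set against day 3, 621 genes were called higher in both. Among genes tested in both tables these are 24.2% of those called here and 70.7% of those called there. Likewise 517 were lower in both (27.1% and 57.6%), and 41 genes called higher here were called lower there and 50 the reverse. Of all genes tested on day 3, 5.06% were called higher and 5.19% lower. Without day 3 replicate 1, the sample nearest to the Tet3m/m samples here in Eif2s3y and Grb10, the shared calls were 465 higher (18.1% and 67.1%) and 466 lower (24.4% and 55.5%).

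With the Dnmt1 experiment (EV), shared calls were 648 higher (24.7% of those here and 37.0% of those there) and 596 lower (30.8% and 30.7%). In the opposite direction, 342 genes called higher here were lower there (13.0%), and 279 called lower here were higher there (14.4%). Of all genes tested there, 10.3% were called higher and 10.9% lower, against 15.3% and 11.3% here. In all 3 experiments 245 genes were called higher and 341 lower, and 161 of the latter lie on chromosome 6. The experiments have separate controls, and no test was run across their tables.

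**Figure D5:**
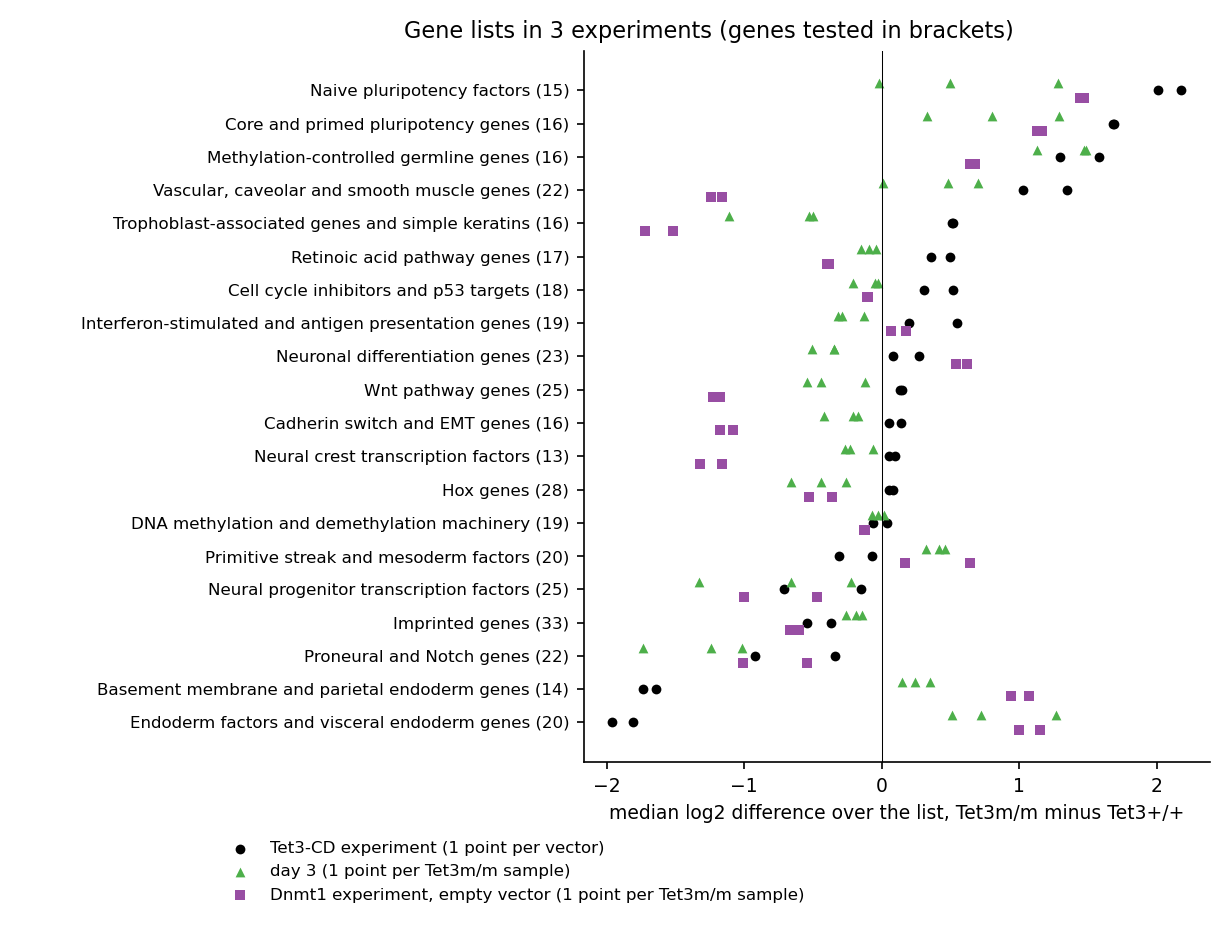
Median log2 difference of Tet3m/m minus Tet3+/+ for 20 gene lists (genes tested in brackets): black, Tet3-CD experiment with each vector; green, each Tet3m/m sample of day 3; purple, each Tet3m/m sample with the empty vector of the Dnmt1 experiment. Pluripotency and germline lists are at or above about 0 in all 3, while the endoderm and basement membrane lists are near -1.8 in the Tet3-CD experiment and above 0 in the other two.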

How the data were processed

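RNA-seq of 4 libraries, 1 per genotype and vector, was compared. The values deposited by the authors are a signal on a linear scale, gene counts divided by library size factors. The submitters' processing notes name Trim Galore 0.6.7, STAR 2.7.9a, featureCounts and DESeq2. The notes name build mm10 and the study's methods mm39, so no coordinate of the alignment is used, and promoters come from RefSeq. Whole reads were recovered from 100.0% of values within 0.01. Depth was 33475041 to 37707719 reads, and intervals and limits on low counts cover counting error only.

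Genes with a mean of at least 10 were fitted as log2(value + 1) with limma 3.58.1 (trended prior, genotype plus vector as a block). Fold changes on this scale understate those of low genes. A call needed an adjusted p under 0.05 and 1.5-fold. Exact counting intervals have 95% confidence. Day 3 and the Dnmt1 experiment were fitted in their own tables. The day 3 contrast (3 against 3) came from a fit of all 8 day 3 samples, with Tet3-/- among them. The empty vector contrast of the Dnmt1 experiment (2 against 2) came from a fit of all 12 samples there, including Tet3-/- and Dnmt1 overexpression. The spread behind those calls is thus estimated from these samples too. The fit was tested on simulated data with 200 changed genes. edgeR 4.0.16 and DESeq2 1.42.0 on recovered reads, other pseudocounts, filters, scaling, sample sets and left-out libraries were the alternatives.

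The comparison, its 20 gene lists and its rules were chosen with earlier results of these data known. Named genes are the Tet and Dnmt genes, genes the study names, the 10 largest rises and falls with a mean of at least 50, up to 4 members per list by adjusted p, 3 genes of each shifted chromosome and the 5 per direction that differ most between vectors. Other genes were picked after their values were seen. The number of per-sample columns left unused was 0.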

Additional observations from a re-analysis of the deposited data

Results flagged for a closer look

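A pair of named genes and 3 gene lists moved in opposite directions in samples that share the contrast of Tet3m/m with Tet3+/+. None of these differences was tested. Among all genes tested, 185 went past 1.5-fold in opposite directions with the vectors. Both genes were named because they differ most between the vectors, so their flag follows from that choice. Col4a4, a type IV collagen gene, had a log2 difference of 1.57 with EV (28.8 in Tet3+/+ and 87.5 in Tet3m/m) and -0.88 with Tet3-CD (63.2 and 33.8). Prmt8, an arginine methyltransferase gene of neurons, had -0.79 with EV (68.4 and 39.1) and 1.15 with Tet3-CD (34.6 and 78.0). Each of these values rests on 1 sample per genotype and vector.

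The list of vascular, caveolar and smooth muscle genes had medians of 1.35 with EV and 1.03 with Tet3-CD, against -1.24 and -1.16 in the 2 Tet3m/m samples with EV of the Dnmt1 experiment. Endoderm genes had medians of -1.96 and -1.81 against 1.0 and 1.15 there, and basement membrane genes -1.74 and -1.64 against 1.07 and 0.94. Each median is relative to the Tet3+/+ samples of its own table.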

How the results depend on the processing

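Called genes numbered 1934 to 2740 higher and 1643 to 2019 lower under other pseudocounts, filters, scalings, sample sets and tools, within 1.5 times the reported counts. By edgeR they were 2606 and 1963, by DESeq2 2096 and 1643. The exception was dropping the fold threshold, with 4733 higher, 4454 lower and 9187 in all. Leaving out 1 library, in the fit with all other libraries of the experiment (which gave 2128 and 1678 with none left out), gave 972 to 1762 higher, 721 to 1668 lower and 1693 to 3430 in all. Fewest calls came without the Tet3+/+ library with Tet3-CD (972 and 721), then without that with EV (1163 and 887, 2050 in all), the Tet3m/m library with EV (1241 and 1117, 2358 in all) and the Tet3m/m library with Tet3-CD (1762 and 1668). Without an added replicate block, day 3 gave 907 higher and 929 lower, and with it 932 and 961. Same-numbered day 3 samples deviated from their group means with correlations of 0.16, 0.06 and -0.04, so the numbers were not taken as pairs. Leaving out 1 day 3 sample gave 561 to 775 higher and 689 to 917 lower, fewest higher without Tet3+/+ replicate 3 (561) and Tet3m/m replicate 2 (563). In the Dnmt1 experiment it gave 1631 to 1744 and 1850 to 1946. No paired analysis was possible because the 2 Tet3+/+ columns with empty vector there carry no number.

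Of 119 named genes called, 110 kept their call under every setting that left no library out. Calls were lost for Tet3, Sox5, Cav1, Acta2, Cyp26b1, Hoxb9, Myh11, Sostdc1 and Tgfb2 with all 6 samples, for Tet3, Sox5 and Cav1 by DESeq2, and for Tet3 and Sox5 without the vector block. Without 1 library, 40 lost it and none reversed. Uncalled genes that reversed were Axin2 (-0.02), Col4a4 (-0.36) and Hrc (-0.18) without Tet3+/+ EV, Hand1 (0.23), Pax3 (-0.02) and Prmt8 (-0.32) without Tet3+/+ Tet3-CD, Col4a4 (-0.79) and Tet1 (0.05) without Tet3m/m EV, and Hrc (-0.08), Olig3 (-0.36) and Prmt8 (-0.77) without Tet3m/m Tet3-CD. The causes were not tested. Counts of list members called moved by over 1.5 times in 12 cases and by less in 348, the former in the methylation machinery, neural progenitor, RA, streak, smooth muscle and interferon lists.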
